A study of Mus musculus with 6 samples.

Results

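Of the 59069 regions of accessible chromatin found in these macrophages, 25091 were open in all 6 libraries, and 1638 of these stood higher with Dex than without it. These 1638 regions are described here. Each region was ranked within each library by its maximum tag density, the height of its strongest DNase I hotspot, as a percentile among the 25091 shared regions. A region was included where the lowest of the 4 ranks with Dex lay above the higher of the 2 ranks without it, and where the mean rank gain was at least 10 points. The regions were thus chosen by their maximum density with and without Dex, and every difference between Dex and LPS alone is given below as a description with no test. The members are 6.53% of the shared regions, and 9.12% met the first condition alone. The same rule turned around found 1717 regions (6.84%) that ranked lower with Dex, and 9.49% met its first condition. Ranks cannot show a shift of the shared regions as a whole, since every library has the same set of ranks.

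DNase-seq was carried out on macrophages grown from the bone marrow of C57BL/6J mice, and every library came from cells given lipopolysaccharide (LPS), an outer-membrane component of bacteria that triggers their inflammatory response, for 8 h. LPS was the only agent in 2 libraries, Dex preceded it in 2, and Dex came late in its course in 2. The labels give no dose or interval for Dex, and untreated cells and cells given Dex alone were not analysed here. Whether replicates are separate animals or cultures is not stated in the labels, so the spreads and p-values given here cover these libraries alone and may be technical.

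Dex is a glucocorticoid. Its receptor is a transcription factor that enters the nucleus once bound by the steroid and binds DNA at its own palindromic elements or together with other factors such as AP-1 and NF-kB. In macrophages the receptor is known to induce anti-inflammatory genes and to dampen inflammatory ones, and much of its binding falls on chromatin that lineage factors such as PU.1 and C/EBP keep open. Binding can raise accessibility further through recruited chromatin remodellers, which DNase I detects as more cuts at the same site. The regions described here were listed in every library, so with and without Dex they differ in rank and not in being listed. How open they were before LPS or Dex is not known from these libraries. Positions are in mm9, and genes and sequences at these positions were not analysed here.

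The deposited lists held from 29347 hotspots (replicate 1 of the late Dex group) to 51834 (replicate 2 of LPS alone), and the 4 Dex lists were shorter than both LPS lists. Maximum densities were whole multiples of a step that differed between libraries, from 0.334 to 0.443, and total tag numbers are unknown. Ranks among the same 25091 regions do not depend on that scale. The median maximum density over all shared regions lay between 17.6 and 19.7 in the 6 libraries.

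With LPS alone the 1638 regions were weak members of the shared set. Their median rank was 22.4 in replicate 1 and 21.3 in replicate 2. With Dex before LPS it was 46.8 and 46.7, and with late Dex 45.9 and 47.7. The regions therefore stood well below the middle of the shared set without Dex and just under it in all 4 Dex libraries. The rule required higher ranks at both times of Dex, so the likeness of the times here is in part given by the choice. In density units, the median of the regions' maxima was 11.7 and 11.8 with LPS alone, 16.9 and 18.6 with Dex before LPS, and 16.4 and 18.8 with late Dex. The LPS medians correspond to 35.0 and 34.0 density steps, and those with Dex to between 41.0 and 49.0, so heights rest on few steps.

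**Figure D1:**
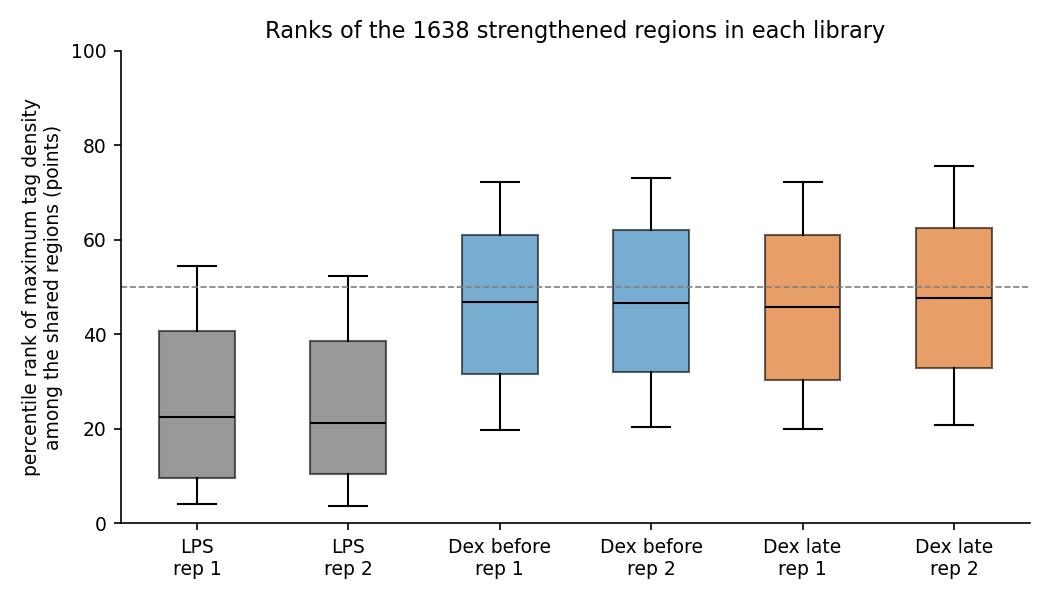
Percentile ranks of the 1638 regions in each library (y axis, points among the 25091 shared regions); boxes span the quartiles with the median as a line, whiskers run from the 10th to the 90th percentile, and the dashed line marks rank 50. The LPS medians were 22.4 and 21.3, and the 4 Dex medians ran from 45.9 to 47.7; the gap between groups was set by the rule.

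The gain in mean rank had a median of 17.6 points, with quartiles of 13.6 and 24.3, and ran from 10.0 to 76.9. It was at least 20 points in 625 regions, at least 40 points in 93 and at least 50 points in 45. On a log2 scale centred on the shared regions, the difference in maximum density had a median of 0.53 and ran from 0.23 to 2.51. Most members thus differed modestly, and a small group differed strongly. For scale, replicates differed in rank over these regions by a median of 5.05 points (LPS alone), 7.86 points (Dex before LPS) and 7.93 points (late Dex). Over all shared regions the medians were 6.73, 7.17 and 7.76 points. The rule chose regions whose groups lay apart, so gain and spread over the members are both shaped by it. The lowest Dex rank cleared the higher LPS rank by a median of 6.05 points and, at the narrowest, by 0.0259 points. Within the libraries numbered 1 the median gain was 17.3 points, and within those numbered 2 it was 18.6 points.

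Just inside the limit of 10 points stood chr12:53071114-53073251, with ranks of 46.2 and 47.7 with LPS alone, 56.3 and 59.5 with Dex before LPS, and 48.4 and 63.7 with late Dex. Next to it was chr6:114843353-114845185, at 74.7 and 68.6, then 76.3 and 78.9, then 85.2 and 86.4 in the same order. Just outside, at a gain of 9.97 points, chr4:9060417-9061515 ranked at 28.5 and 31.0, then 33.3 and 39.8, then 40.4 and 45.4. The gain of chr14:55812362-55813314 was 9.96 points. These regions are alike on either side of the limit, so the membership of regions near it is a matter of the cutoff.

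The 10 regions with the largest gains ranked no higher than 21.3 in either LPS library and no lower than 63.2 in any Dex library. The largest gain, 76.9 points, was at chr4:140827205-140828443. This region ranked at 9.54 and 5.46 with LPS alone, at 78.0 and 90 with Dex before LPS, and at 82.2 and 87.5 with late Dex. Its maximum densities were 8.70 and 7.98 without Dex, against 37.1, 49.0, 42.0 and 42.5 in the 4 Dex libraries, a 5.14-fold difference of centred geometric means. The hotspot there also widened, covering 666 and 615 bp in the LPS libraries and between 1076 and 1238 bp in the 4 Dex libraries. Another member lay 0.023 kb away, and joining hotspots up to 500 bp apart makes them a single region.

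A pair of regions on chromosome 9, 3.78 kb apart, also belonged to the 10. The stronger, chr9:48552709-48553897, ranked at 1.80 and 2.99 with LPS alone, at 83.2 and 74.7 with Dex before LPS, and at 75.5 and 82.9 with late Dex. Its densities were 6.02 and 6.94 without Dex and 31.5 to 45.3 with it, 5.69-fold apart, the largest fold of the 10. The other, chr9:48547860-48548927, ranked at 1.80 and 5.46, then 71.8 and 66.2, then 65.9 and 71.4. In both regions the Dex groups overlapped while the LPS libraries lay among the weakest shared regions. A region listed by all 4 Dex libraries and by neither LPS library, called Dex-only below, lay 5.11 kb from the weaker one.

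Chromosome 1 held 3 of the 10. At chr1:161818491-161820327 the ranks were 4.03 and 1.81 with LPS alone, 69.8 and 80.1 with Dex before LPS, and 76.9 and 88.0 with late Dex, and a Dex-only region began 0.123 kb away. At chr1:80491701-80494056 they were 7.19 and 5.46, then 74.4 and 73.7, then 63.2 and 84.1, with a Dex-only region 0.543 kb away. At chr1:130510252-130512515 they were 17.9 and 19.6, then 76.3 and 81.9, then 84.0 and 92.0. The Dex groups overlapped at the first and the second. At the last both late ranks lay above both pre-treated ranks, by 8.95 points in the mean, which limma did not call (adjusted p = 1.0).

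Of the remaining 4, chr5:32387677-32388838 stood at 8.32 and 10.4 with LPS alone and between 71.7 and 84.1 with Dex. On chromosome 3, chr3:50124458-50125658 stood at 7.19 and 21.3 against 76.2 to 86.5, and chr3:50540501-50541972 at 6.10 and 3.72 against 63.2 and 68.9 with Dex before LPS and 71.7 and 76.3 with late Dex. This was the other of the 10 with both late ranks above both pre-treated ranks (limma adjusted p = 1.0). The last, chr9:121480384-121481823, stood at 16.4 and 19.6 against 71.8 to 91.0. In all 10 the nearest region that ranked lower with Dex was at least 105 kb away. Such a distance was common, since 16132 of the 21736 shared regions that met neither rule also lay over 100 kb from one. Ranked by average density in place of maximum density, the 10 had gains of 58.7 to 75.8 points, and ranked by the deposited z-score, 52.3 to 78.5 points.

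**Figure D2:**
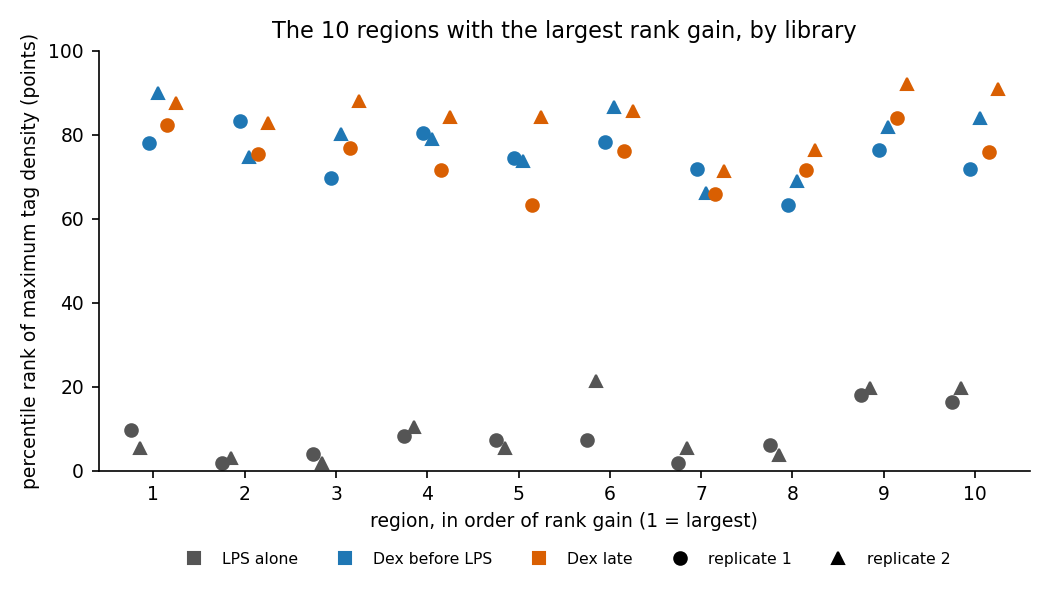
Percentile rank of maximum tag density (y axis, points) for the 10 regions with the largest gain (x axis, in order of gain), one symbol per library, coloured by group and shaped by replicate number. LPS libraries lie between 1.80 and 21.3 and Dex libraries between 63.2 and 92.0, and the times of Dex overlap in 8 of the 10.

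The members began at very different levels. With LPS alone 387 of them had a mean rank under 10, 509 from 10 to 25, 530 from 25 to 50, 210 from 50 to 75 and 2 above 75. As a share of all shared regions at that level, members fell from 17.9% under rank 10 to 12.9%, 8.06%, 3.36% and 0.0325%. A region at the top of the list has no room to gain 10 points, and one at the bottom has none to lose, so the rule itself shapes this trend. Regions ranking lower with Dex were most frequent from 50 to 75, at 11.6%, and numbered 0 of 2163 under rank 10.

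At the weakest end lay regions that were barely listed without Dex. The lowest mean LPS rank was at chr1:169483962-169484832, at 0.273 and 0.181 with LPS alone, 13.8 and 10.9 with Dex before LPS, and 13.5 and 5.14 with late Dex. On chromosome 12, chr12:78637833-78639186 went from 0.640 and 0.285 to 21.7, 21.9, 22.2 and 32.8, and its densities from 5.02 and 4.51 to between 10.7 and 15.1. The region at chr16:65725739-65727183 ranked at 0.108 and 0.919 with LPS alone. With Dex it ranked at 8.16 and 9.32 in the libraries numbered 1 and at 30.4 and 30.8 in those numbered 2, so its level with Dex followed the replicate number and not the time of Dex. The others were chrX:137038317-137039106, described further below, and chr8:48315142-48316015, at 0.418 and 0.660 without Dex and 10.0 to 17.2 with it.

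At the strong end, chr12:86795698-86796908 already ranked at 88.5 and 81.7 with LPS alone and stood at 98.0 and 91.5 with Dex before LPS and at 97.0 and 95.7 with late Dex. Its maximum densities were 54.2 and 35.1 without Dex, 103 and 52.4 with Dex before LPS, and 91.6 and 62.9 with late Dex. On the density scale, then, replicate 1 of LPS alone exceeded replicate 2 of the pre-treated group, although the ranks did not overlap. The next strongest were chr11:120011406-120013083 (84.9 and 72.9 without Dex, 86.3 to 92.9 with it) and chr3:127471710-127472826 (69.6 and 79.7, then 79.7 to 89.0). After them came chr5:102910030-102911380 (81.4 and 67.3, then 81.5 to 88.6) and chr11:75384208-75385493 (70.5 and 78.0, then 83.1 to 88.8). Each of these 5 gained between 10.0 and 11.4 points, and the size of the gain depended on the LPS library used. Every gain stayed positive without either LPS library but fell under 10 points without one of them. Without replicate 1 of LPS alone the gains were 16.0 points at chr11:120011406-120013083, 18.5 at chr5:102910030-102911380 and 5.29 at chr3:127471710-127472826. Without replicate 2 they were 3.98, 4.38 and 15.4 points. At the other two, chr12:86795698-86796908 and chr11:75384208-75385493, they were 13.9 and 7.20 points without replicate 1 and 7.07 and 14.7 points without replicate 2. All 4 Dex ranks exceeded 75 in 62 members (3.79%), against 18.6% of all shared regions, and exceeded 50 in 515 (31.4%), against 40.1%. In 46 members (2.81%) both LPS ranks were under 25 while all 4 Dex ranks were over 50. In 9 of these (0.549% of the members) both LPS ranks were under 10. They make up 0.183% and 0.0359% of all shared regions, and any region within these limits meets the rule by definition.

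**Figure D3:**
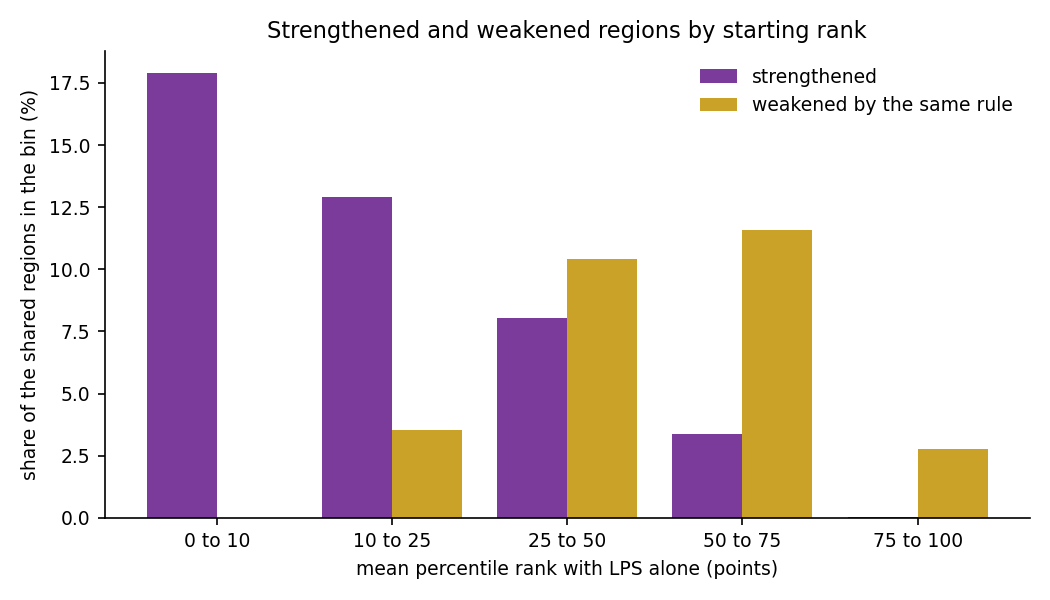
Share of the shared regions in each bin of mean LPS rank (x axis, points) that ranked higher with Dex by the rule (purple) or lower by the reversed rule (yellow), in percent. Strengthened regions fall from 17.9% in the weakest bin to 0.0325% in the strongest, and weakened regions peak at 11.6% between ranks 50 and 75; the rule limits both, since ranks end at 0 and 100.

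Width was not used by the rule. Members had a median width of 1014 bp, with quartiles of 847 and 1304 bp, against 1129 bp (896 and 1546 bp) for the other 23453 shared regions. Wider regions are also stronger, and at matched mean rank over the 6 libraries most of the gap was gone. From rank 25 to 50 the medians were 985 bp for 753 members and 989 bp for 6183 other regions, and from 50 to 75 they were 1212 and 1232 bp. Members above 75 were narrower, at 1343 against 1538 bp, but numbered 50.

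The length covered by hotspots within a region is another reading of the same contrast. Over all shared regions, hotspots covered a median of 994 and 1035 bp in the LPS libraries, against 771 to 975 bp in those with Dex, so Dex lists had shorter hotspots in general. Over the members the medians were 793 and 831 bp with LPS alone, 814 and 944 bp with Dex before LPS, and 729 and 907 bp with late Dex. In 283 members (17.3%) the covered length was greater in all 4 Dex libraries than in both LPS libraries, against 84 of the other shared regions (0.358%). The reverse held for 104 members (6.35%) and for 8390 of the others (35.8%). Members thus lacked the general shortening, as a description of regions picked for their height.

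Average density and z-score, deposited beside the maximum, come from the same contrast too. By rank of average density the 4 Dex libraries lay above both LPS libraries in 1387 members (84.7%), where 9.62% of all shared regions did so. By rank of z-score the count was 1223 (74.7%), where the figure for all shared regions was 9.87%.

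The positions of the members were not used by the rule either. Members lay on every chromosome but Y, where 50 shared regions held none. Their share of the shared regions ran from 3.96% on chromosome X (27 of 682) to 8.65% on chromosome 12 (83 of 960), around 6.53% overall. Chromosome 17 held 89 members against 53 regions ranking lower with Dex, and chromosome 13 held 77 against 105.

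Members stood near each other. Another member lay within 10 kb of 326 of the 1638 (19.9%), while 5.04% of the 21736 shared regions in neither set, and 1.75% of the regions ranking lower with Dex, had a member that near. Members had a denser neighbourhood of shared regions in general, with any other shared region within 10 kb of 61.2% of them against 49.8% of the regions in neither set. Among regions with such a neighbour, a member was within reach of 32.5% of the members and of 10.1% of the regions in neither set. Only 40 members (2.44%) had another member within 0.5 kb. Dex-only regions, of which there were 230, lay within 10 kb of 74 members (4.52%) and of 98 regions in neither set (0.451%). Like the members, Dex-only regions were chosen by Dex against LPS alone in the same libraries, and no test was made. Regions ranking lower with Dex lay within 10 kb of 30 members (1.83%) and of 4.98% of the regions in neither set.

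The shared regions that met neither rule followed the same geography on a smaller scale. Those within 2 kb of a member had a median Dex minus LPS difference of 2.90 points, and 220 of 323 (68.1%) were above 0. The median was 1.42 points from 2 to 5 kb, 1.29 from 5 to 10 kb, 0.948 from 10 to 20 kb and 0.469 from 20 to 50 kb. Beyond 100 kb it was -0.216 points, with 47.6% of 16162 regions above 0. Around regions ranking lower with Dex the signs were turned, from -2.33 points within 2 kb to 0.177 points beyond 100 kb. The quartiles of every bin lay on both sides of 0, so single neighbours of a member went either way. Differences from LPS alone at these neighbours come from the same libraries that chose the members, and no test was made.

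**Figure D4:**
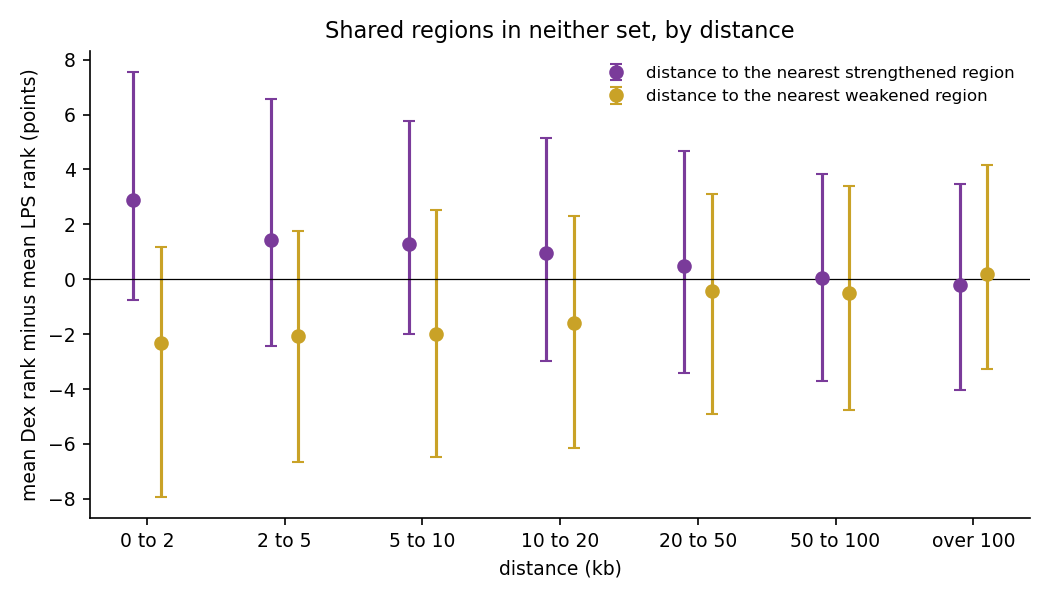
Mean Dex rank minus mean LPS rank (y axis, points) of the 21736 shared regions in neither set, by distance in kb (x axis) to the nearest strengthened region (purple) or weakened region (yellow); points are medians and bars run between the quartiles. Medians go from 2.90 within 2 kb of a strengthened region to -0.216 beyond 100 kb, and from -2.33 to 0.177 around weakened regions.

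Among regions that some libraries did not list, those near members more often favoured Dex, though most still favoured LPS alone. They include the Dex-only regions and come from the libraries that chose the members, and no test was made. Of the 33978 such regions, 14.9% were listed by a larger share of the Dex than of the LPS libraries and 80.2% by a larger share of the LPS libraries, whose lists are longer. Within 10 kb of a member 538 of 1518 (35.4%) leaned to Dex and 58.5% to LPS. Within 10 kb of a region ranking lower with Dex, 8.02% leaned to Dex and 89.2% to LPS.

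Joining members and Dex-only regions that lay up to 10 kb apart gave 190 groups of 2 or more that held at least 1 member, with 377 members in all. Of these groups 44 had 3 or more regions and 13 had 4 or more. The densest 5 are described next. In none of them did a region rank lower with Dex by the rule. Most shared regions in each were members, which cannot do so, and the share over all shared regions was 6.84%. This absence is therefore largely given by the choice of groups.

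The group on chromosome X, from 137038317 to 137055446 (17.1 kb), held 2 members and 4 Dex-only regions among 7 regions in all. The member at its left end, chrX:137038317-137039106, ranked at 0.273 and 0.660 with LPS alone, at 36.7 and 15.5 with Dex before LPS, and at 32.2 and 9.33 with late Dex. That at the right end, chrX:137054340-137055446, ranked at 23.9 and 18.1, then 78.6 and 39.8, then 51.9 and 58.2. Here the pre-treated replicates differed by more than the distance from the lower one to the LPS libraries. The Dex-only region next to the first, chrX:137039944-137041751, had maximum densities of 20.6, 20.5, 22.4 and 20.8 and was not listed with LPS alone. This stretch thus held regions listed only with Dex beside members that were listed without it, whereas 297 of the 377 grouped members lay in groups with no Dex-only region.

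The group on chromosome 17, from 28647329 to 28665505 (18.2 kb), held 3 members and 3 Dex-only regions, with a Dex-only region at its left end and a further 2 between the first and the second member. At chr17:28649170-28651540 the ranks were 30 and 19.6 with LPS alone, 86.0 and 91.1 with Dex before LPS, and 80.0 and 89.9 with late Dex. The maximum densities there were 13.4 and 11.5 without Dex, 50.6 and 51.3 with Dex before LPS, and 38.8 and 46.5 with late Dex, a 3.80-fold difference. The next member, chr17:28659012-28661416, ranked at 25.4 and 18.1, then 87.7 and 70.9, then 88.4 and 78.7. In it the libraries numbered 1 had the higher ranks at both times of Dex, with densities of 54.8 and 55.2 against 28.9 and 33.2 in those numbered 2. The member at the right end, chr17:28664618-28665505, gained 27.2 points, from 32.9 and 42.7 to between 57.7 and 71.5. By z-score its gain was 4.64 points, and its hotspots covered 651 to 847 bp with Dex against 830 and 866 bp with LPS alone.

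On chromosome 9, from 44892243 to 44930998 (38.8 kb), 5 members and 1 Dex-only region stood among 9 regions in all, and all 5 shared regions of the stretch were members. The strongest gain was at chr9:44920519-44922052, with ranks of 10.9 and 8.95 with LPS alone, 60.3 and 77.2 with Dex before LPS, and 63.9 and 78.1 with late Dex. At chr9:44902997-44904178 the ranks were 17.9 and 21.3, then 57.2 and 68.9, then 69.6 and 80.1. At chr9:44892243-44893288 they were 25.4 and 6.56, then 60.3 and 47.9, then 67.0 and 51.5. The other two gained less, 12.2 points at chr9:44910195-44911289 and 15.9 points at chr9:44929818-44930998, where the gain by z-score was 6.12 points. Gains within a stretch of neighbouring members could thus differ by several times, here from 12.2 to 60.0 points.

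Chromosome 2, from 170132779 to 170152797 (20 kb), held 5 members and no Dex-only region among 9 regions. Its members started at different levels. With LPS alone chr2:170136125-170137672 ranked at 55.9 and 75 and chr2:170144354-170145324 at 62.1 and 62.2, while chr2:170152181-170152797 ranked at 2.40 and 14.8. With Dex the first ranked at 79.5 to 90.5, the second at 72.0 to 84.8 and the last at 15.7 to 28.2, a gain of 13.3 points that was 2.95 points by z-score. The largest gain of the stretch, 32.9 points, was at chr2:170141704-170142798, from 22.4 and 42.7 to between 61.8 and 71.4. The last group, on chromosome 4 from 138774125 to 138798518 (24.4 kb), held 4 members and 1 Dex-only region. Its strongest member, chr4:138788128-138789695, ranked at 16.4 and 6.56 with LPS alone, at 64.6 and 54.7 with Dex before LPS, and at 78.8 and 54.3 with late Dex.

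The groups given Dex before LPS and late were compared next. The rule did not use the difference between them, but it did use all 4 Dex ranks, each of which had to lie above both LPS ranks. A rank just above LPS alone at either time was enough, and the differences between the times ran from -36.1 to 35.5 points. A region at or below LPS alone at either time could not enter, so the choice limits these differences in part. The counts below are therefore no measure of how alike the times were. The mean rank with Dex before LPS minus that with late Dex had a median of -0.210 points over the members, with quartiles of -4.90 and 4.75. Without replicate 2 of the late group the median was 0.828 points, so its sign rests on that library. It stayed within 10 points in 1319 members (80.5%), as in 80.7% of all shared regions. Both pre-treated ranks lay above both late ranks in 233 members (14.2%), where 13.3% of all shared regions did so, and both late ranks were above in 269 (16.4%), where the figure for all shared regions was 13.6%. With a difference of at least 10 points as well, 112 members (6.84%) stood higher with Dex before LPS and 130 (7.94%) with late Dex, against 6.52% and 7.06% of all shared regions. With limma on normal scores of the ranks, fitted over all 25091 shared regions, 0 members passed an adjusted p of 0.05, as did 0 shared regions (0.0%). The smallest adjusted p among members was 0.983. At an unadjusted p under 0.05 there were 39 members (2.38%), against 4.41% of all shared regions. Of these, 18 were higher with Dex before LPS and 21 with late Dex, where 1.94% and 2.47% of all shared regions were. With the replicate number as a block, 84 members had an unadjusted p under 0.05 and 8.66% of all shared regions did, and limma again called 0. With ranks in points in place of normal scores, fitted as an addition after seeing the data, the unadjusted count was 107 members (6.53%) against 5.33% of all shared regions, so members lay below the background on one scale and above it on the other. With that scale and the block together it was 166 members (10.1%) against 9.49%. An exact permutation test of 2 libraries against 2 cannot give a p below 0.333.

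The missing calls do not show that the times of Dex acted alike. Fitted in rank points with limma, the 95% interval of a member's difference had a median half-width of 15.7 points. That interval stayed within 20 points of 0 in 664 members and reached 20 points or more in 974. With the replicate number as a block the median half-width was 13.7 points, and the counts were 875 and 763.

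**Figure D5:**
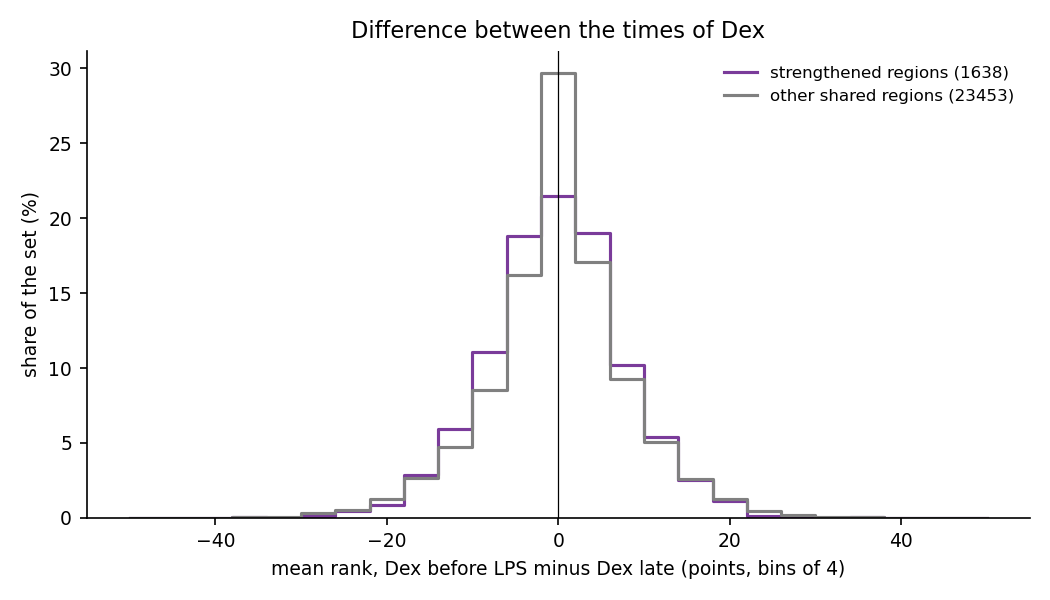
Difference in mean rank between Dex before LPS and late Dex (x axis, points, in bins of 4) for the strengthened regions (purple) and the other shared regions (grey), as a percentage of each set (y axis). Both curves are centred near 0. Within 5 points lay 51.2% of the strengthened regions and 56.2% of all shared regions, the strengthened ones included. The median of the strengthened regions is -0.210 points.

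The members with the widest separation between the Dex groups are given for their values alone, as none passed the test. At chr19:58161273-58162104 the ranks were 1.34 and 1.81 with LPS alone, 38.4 and 63.0 with Dex before LPS, and 3.43 and 26.9 with late Dex. At chr2:154089847-154090880 they were 0.957 and 0.285, then 27.9 and 42.8, then 4.60 and 6.38, with an unadjusted limma p of 0.00105 and an adjusted p of 0.983. The late values at both places were near those with LPS alone in 1 library or more. Differences of 21.8 to 23.8 points in the same direction stood at chr2:163538228-163539589, chr2:131853000-131853842 and chr4:32656274-32657864.

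In the other direction, chr9:115401109-115402573 ranked at 9.54 and 13.3 with LPS alone, at 19.7 and 25.2 with Dex before LPS, and at 47.2 and 69.8 with late Dex. At chr3:98231175-98232762 the ranks were 6.10 and 11.8, then 29.8 and 13.9, then 48.4 and 51.5, and at chr12:35492821-35493663 they were 8.32 and 6.56, then 10.0 and 12.3, then 26.3 and 50. At these 3 the mean pre-treated rank stood closer to LPS alone than to late Dex. Late Dex was also ahead by 25.8 points at chr15:9457616-9458731 and by 25.7 points at chr10:39178290-39179206. The smallest adjusted limma p among these 10 members was 0.983.

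The number of regions that met the rule rose most when an LPS library was left out. The rule has only 2 LPS libraries against 4 with Dex, so it is eased most there by design. Of the members, 1498 met it without replicate 1 of LPS alone and 1431 without replicate 2. Leaving out a Dex library gave 1887 to 2115 regions that met the rule, of which 1545 to 1561 were members. The ranks of a member stay apart when a library is left out, so only the limit of 10 points could exclude it. Without replicate 1 of LPS alone 3745 regions met the rule, and against that library their median gain was 5.98 points, below the 16.7 points in the libraries used. Without replicate 2 there were 2639 regions, with 10.5 points against that library and 16.5 points in the others. A library left out was read against libraries that had chosen the regions, so a gain above 0 there is in part given by the choice and supports nothing.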

How the data were processed

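DNase-seq hotspot lists of 6 libraries, 2 in each of 3 groups taken from the sample titles, were analysed. Nuclei were treated with DNase I at 80 U/ml (37 °C, 3 min), and fragments of 100 to 500 bp gave single-end reads of 51 bp, per the labels. CASAVA and the build mm9 are named in the submitters' processing notes. The aligner, hotspot caller and cutoff were not given in the sources used here. The deposited signal values are the maximum and average tag density of each hotspot, the deposited score is a z-score, and the deposited p-value, not used here, belongs to the same hotspot, per the file headers. The scaling of densities and whether positions count from 0 or 1 are not stated, and positions are printed as in the files. Each list was called per library.

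Hotspots sharing at least 1 bp were merged. Regions listed by all 6 libraries were ranked within each library by their highest hotspot, on a scale of 0 to 100. Percentile ranks were turned into normal scores and fitted with limma 3.58.1 in R 4.3.3 over all 6 libraries, with Benjamini-Hochberg adjustment over all shared regions. The fit was tested on simulated data. The members and lists were chosen with earlier results of these data known. Named regions are the 10 largest gains, the 5 largest separations between Dex groups in each direction, the 2 on either side of the limit of 10 points, the 5 weakest and 5 strongest with LPS alone, and the 5 densest groups. Alternatives were other signals, merging, list length, limits, scales, a filter on low ranks, leaving out each library, and blocking on replicate number. Gene lists, cell markers, promoters and motifs need a genome or annotation of mm9 and were not used here.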

Additional observations from a re-analysis of the deposited data

How the results depend on the processing

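The count of 1638 stayed within 1.5 times its value with average density (1650), z-score (1740), hotspots up to 500 bp apart merged (1551), lists of equal length (1245), a limit of 5 points (2121) and a replicate block, in which every Dex library was compared with the LPS library of its own number (2313). These hold 1287, 1103, 1547, 1086, 1638 and 1638 of the members. The limit of 5 points and the replicate block only loosen the rule, so they hold every member by definition. A limit of 20 points left 625 and a log2 density difference of at least 1 left 174. Leaving out each library in turn gave 1887 to 3745 regions, the highest without replicate 1 and the next (2639) without replicate 2 of LPS alone, where fewer libraries make the rule easier to meet. With each library left out, 1431 to 1561 of the members were found again.

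For the time of Dex, 0 members passed under every alternative run. Over all shared regions the count was 0 to 1, with 1 region, no member, called without replicate 2 of the late group (limma adjusted p = 0.0318). With a replicate block it was 0, and 84 members (5.13%) had an unadjusted p under 0.05. Deviations from the group means correlated between libraries of the same number at 0.382 to 0.435, and each Dex library correlated best with the Dex library of its own number (0.941 and 0.928, against 0.915 and 0.897 within a group), which is a hint from the data and not the design. The LPS libraries correlated best with each other (0.923). Fitting ranks in points, with and without the block, was added after seeing the data and called 0. The median difference between the times of Dex ran from -0.687 to 0.828 points with a Dex library left out, the highest without replicate 2 of the late group, and was 0.152 points by z-score. Members near a Dex-only region numbered 157 within 50 kb in place of 74 within 10 kb. No gain of the 52 named regions changed sign in the 416 values recomputed for them. The limit for a move was the larger standard deviation, that of all Dex libraries together or that of the LPS libraries. It mixes the times of Dex and is not a replicate spread. At chr15:9457616-9458731 a fall from 21.8 to 7.59 points by z-score stayed within it (17.7), but exceeded the replicate values of 9.78 (Dex before LPS) and 13.3 (late Dex). At chr5:32387677-32388838 a fall from 69.4 to 63.6 points by average density passed it (5.21), but not the late value of 8.82. By this limit 13 values moved. Of these 12 came from the z-score, 5 larger and 7 smaller, such as 12.5 in place of 27.1 points at chr4:138774125-138774776. Shares at promoters and with motifs were not run. Maximum densities of about 34.0 to 49.0 steps at the median limit how finely members can be ranked.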
